A study of Rattus norvegicus and Mus musculus with 3 samples.

Results

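The genes described here are the interferon-induced and interferon regulatory genes of the hippocampus: the interferon receptors, the Stat factors they signal through, the interferon regulatory factors (Irf), and the induced Ifit, Ifitm, Ifi, Oas, Mx and Gbp families with Isg15, Isg20, Usp18, Rsad2, Bst2 and Ifih1. They were chosen by symbol alone, case ignored. The rule took 59 of the 30438 genes listed for the rats and 74 of the 34714 listed for the mouse. Together they make 82 symbols, of which 51 were in both species, 8 in the rat tables only and 23 in the mouse table only. Hippocampal RNA was sequenced in 3 libraries, 1 per group. The 2VO rat and the Sham rat were both wild-type animals of 3 to 4 months, and the labels give the surgical model as the only difference between them. 2VO usually stands for permanent closure of both common carotid arteries, a rat model of chronic brain hypoperfusion, and Sham for the operation without closure. The third library is labelled 3xTg-AD wild type and came from a mouse of 6 months, with no transgenic partner analysed here. The sources used here do not say whether a library held RNA of 1 animal or of several.

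Interferons are secreted alarm proteins of antiviral defence. Type I interferons bind a receptor made of Ifnar1 and Ifnar2, and interferon gamma binds one made of Ifngr1 and Ifngr2. The receptors act through Stat transcription factors and Irf9, which switch on a set of induced genes through a DNA element called ISRE (interferon-stimulated response element) or, mainly after interferon gamma, an element called GAS (gamma-activated site). In the brain, microglia, astrocytes, endothelium and neurons can all respond, and a low level of this response is present without infection.

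The values are normalized expression values whose unit is not stated, here called units. Each group is a single library, so every difference below is one between these libraries, without a replicate to check it. Differences were expressed as log2((2VO + 1)/(Sham + 1)), called the log2 ratio, which makes the differences of low genes look smaller. Fold thresholds were applied to this ratio, so a low gene can differ by more in its plain values. A gene was counted as measured at a mean of at least 1 unit over both rats. The sums of the tables were 333941 in 2VO, 325636 in Sham and 268889 in the mouse. Markers of hippocampal pyramidal and granule cells were above 0 for all 6 genes in both rats, among them Prox1 at 14.8 units in 2VO and 17.2 units in Sham. Their levels differed between the libraries in both directions, with Wfs1, a marker of CA1 pyramidal cells, at 111 units in 2VO and 169 units in Sham (1.52-fold lower), and Calb1, a marker of granule cells and some pyramidal cells, at 35.0 units in 2VO and 25.6 units in Sham (1.36-fold higher). The part of these differences in the interferon results was not tested. Spink8 was the lowest, at 0.0741 units in 2VO and 0.0696 units in Sham.

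Most interferon genes had lower values in the 2VO library than in the Sham library, by small amounts. Across all members that were above 0 in either rat, 44 of 57 were lower in 2VO and 13 were higher, and 2 members were listed at 0 in both. Among all 23244 genes above 0 in either rat, 43.6% were lower in 2VO. Of the 32 measured members 25 were lower and 7 higher, beside 41.3% lower among the 13550 measured genes of the tables. The lean lay mainly in the induced genes, of which 17 of 18 were lower with a median log2 ratio of -0.30. For the receptors, Stat and Irf genes 8 of 14 were lower, with a median of -0.06. The median over the 32 measured members was -0.21, beside 0.04 over all measured genes. Whether the induced and the regulatory genes differ from each other was not tested, since each value comes from 1 library. Role and level were not separated either. Of the measured induced genes only Ifi27, Ifi30, Ifitm10 and Mx2 had a mean of at least 5 units, and ratios spread more below that level.

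The sizes were modest. Ifit3 and Bst2 were at least 1.5-fold lower in 2VO, and 2 members, among them Ifi27, were at least 1.5-fold higher. The background was 0.967% of measured genes at least 1.5-fold lower and 1.51% at least 1.5-fold higher. Ifit3 was also the 1 member at least 2-fold lower and 0 members were at least 2-fold higher, against 0.199% and 0.244% of measured genes in those directions. The remaining 28 measured members differed by less than 1.5-fold. Members that cross 1 unit in 1 library only must differ to some degree, and Ifit3 and Oas1a were among them. Among the 29 members at 1 unit or more in both rats, 23 were lower in 2VO and 6 higher, beside 41.3% lower among the 13264 such genes of the tables.

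**Figure D1:**
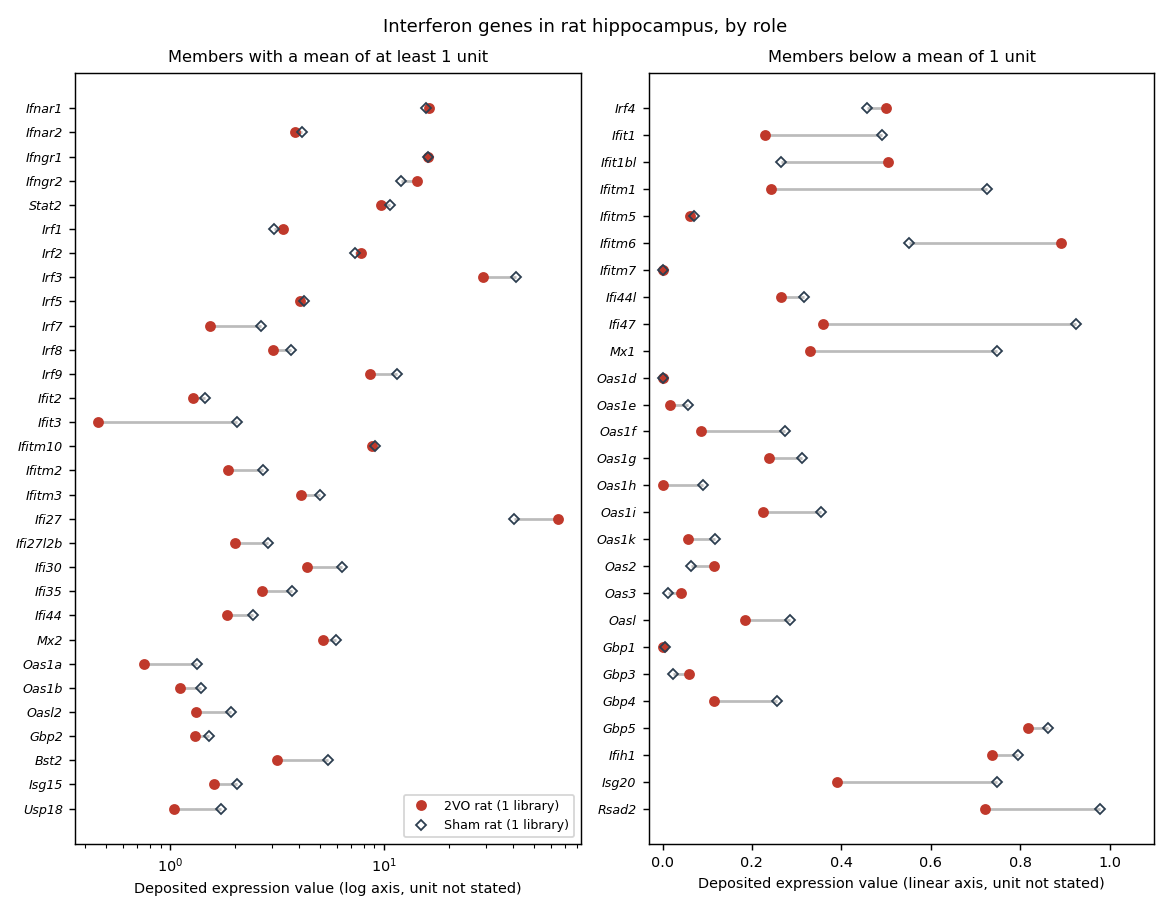
Deposited values of 57 rat members in the 2VO library (filled circles) and the Sham library (open diamonds), ordered by role, with a log axis for 30 measured members on the left and a linear axis for the 27 lower ones on the right. In most rows the 2VO circle lies left of the Sham diamond, while Ifi27, at 64.7 units in 2VO against 40.3 units in Sham, lies to the right.

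A scale for these ratios came from the other genes of the same level. For measured genes with a mean of 1 to 2 units, the central 95% of ratios ran from -0.49 to 0.59, and at 10 to 20 units from -0.35 to 0.44. This is a spread of genes between 1 pair of libraries and not of replicates. Below the range of their own level lay 6 of the 32 measured members, namely Ifit3, Bst2, Irf7, Irf3, Ifi30 and Irf9. Above it lay 2, among them Ifi27. Ifit3, below 1 unit in 2VO, passed the filter through its Sham value only. The range leaves out 2.52% of all measured genes on either side by construction. The other 24 measured members lay inside it, so their single differences are no larger than those common among genes of their level. Irf9 and Ifi30 lie close to the edge of their level range. Both would be inside the range of the next lower levels, which began at -0.38 for 5 to 10 units and -0.51 for 2 to 5 units. Irf7, at -0.53, was also close to the edge of its range of 2 to 5 units, though outside that of 1 to 2 units as well.

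**Figure D2:**
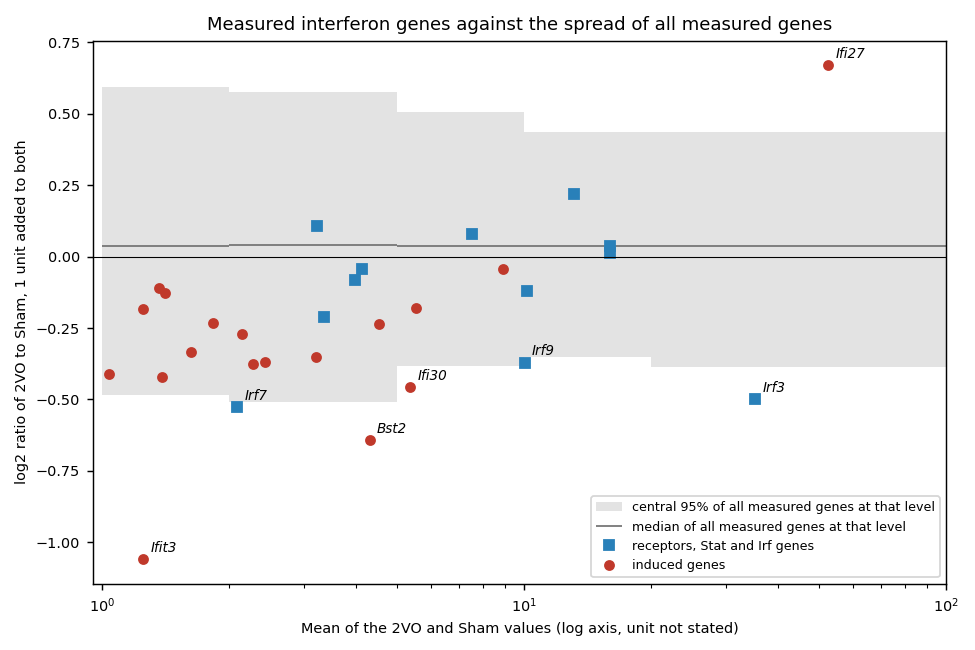
The log2 ratio of 2VO to Sham of 30 measured members against their mean value on a log axis, with receptors, Stat and Irf genes as squares and induced genes as circles. The grey band is the central 95% of all measured genes within each range of levels, and the 7 named genes lie outside it, 6 below and 1 above.

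The interferon genes themselves were close to absent from the tables. Of 12 interferon ligand genes listed for the rat, 10 were at 0 in 2VO and 7 at 0 in Sham, and Ifnb1 and Ifng, the genes of interferon beta and gamma, were at 0 in both. The highest was Ifna4, with 0.108 units in 2VO and 0.125 units in Sham. For the mouse, 19 of 20 such genes were at 0. These ligand genes were looked up after the members' values had been seen.

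The receptor genes were nearly level between the rats. Ifnar1, the receptor chain that binds the kinase Tyk2, had 16.2 units in 2VO and 15.7 units in Sham, a log2 ratio of 0.04. Ifnar2, the chain that binds interferon most tightly, had 3.82 units in 2VO and 4.11 units in Sham (-0.08). Ifngr1, the ligand-binding chain for interferon gamma, had 16.1 units in 2VO and 15.9 units in Sham (0.01). Ifngr2, the signalling chain of the same receptor, was the furthest apart of the receptor genes, at 14.2 units in 2VO and 12.02 units in Sham (0.22). The median over the 4 receptor genes was 0.02, close to the 0.04 of all measured genes. Ifnar2, Ifnar1 and Ifngr2 lie next to each other in the rat gene order, with at most 2 genes between neighbours, and did not share a direction.

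Stat2 was slightly lower in 2VO. Stat2, the Stat factor specific to type I and III interferons, had 9.70 units in 2VO and 10.6 units in Sham (-0.12), and the ratio stayed within the range of genes of its level. Irf9, its DNA-binding partner, had 8.61 units in 2VO and 11.4 units in Sham. The log2 ratio of Irf9, -0.37, was just below the range for 10 to 20 units, which began at -0.35, so both leaned the same way.

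The other interferon regulatory factors were divided. Irf3, which waits in the cytoplasm and starts interferon production when nucleic acid sensors fire, had 29.0 units in 2VO and 41.4 units in Sham, a log2 ratio of -0.50. That was the largest gap in units among the lower members, and it left the range for genes of 20 units or more, which began at -0.39. Irf7, the interferon-induced factor that amplifies type I interferon production, had 1.53 units in 2VO and 2.64 units in Sham (-0.53). Both factors best known for driving interferon production thus had lower values in the 2VO library. Irf8, a factor that microglia need, had 3.03 units in 2VO and 3.66 units in Sham (-0.21). Irf5, which acts downstream of Toll-like receptors in myeloid cells, had 4.04 units in 2VO and 4.20 units in Sham (-0.04).

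Irf1 and Irf2 were slightly higher in 2VO and well inside the range of their levels, where the median of all measured genes was 0.04. Irf1, itself induced by interferon gamma, had 3.38 units in 2VO and 3.06 units in Sham (0.11), and Irf2, its repressing relative, had 7.75 units in 2VO and 7.28 units in Sham (0.08). Irf4, a lymphocyte factor, was below the filter in both, at 0.499 units in 2VO and 0.458 units in Sham.

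Among the induced genes Ifit3 was furthest apart. Ifit proteins bind viral RNA and hold back its translation, and Ifit3 stabilizes the complex that Ifit1 forms. Ifit3 had 0.460 units in 2VO and 2.04 units in Sham, a log2 ratio of -1.06. Of all measured genes 0.170% had a lower ratio. Being below 1 unit in 2VO, Ifit3 passed the filter through its Sham value only, so part of its gap follows from that selection. With 4 units added its log2 ratio was -0.44. Ifit2, which lies beside it in the gene order, had 1.27 units in 2VO and 1.45 units in Sham (-0.11) and was well inside the range. Ifit1 had 0.229 units in 2VO and 0.491 units in Sham, while Ifit1bl, in the same cluster, had 0.504 units in 2VO and 0.265 units in Sham. Of the 4 Ifit genes only Ifit1bl was higher in 2VO, at values below the filter. Ifit1 and Ifit1bl, like the other genes below 1 unit that are named here, were chosen after their values were seen.

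The Ifitm genes encode small membrane proteins that block the entry of enveloped viruses. Ifitm2 had 1.85 units in 2VO and 2.70 units in Sham (-0.38), and Ifitm3 had 4.09 units in 2VO and 4.98 units in Sham (-0.23). Ifitm10, a distant relative outside the immune cluster, was level, at 8.78 units in 2VO and 9.08 units in Sham (-0.04). Of the low members, Ifitm1 had 0.243 units in 2VO and 0.725 units in Sham, and Ifitm6 had 0.891 units in 2VO and 0.551 units in Sham. Ifitm7 was listed at 0 in both. Ifitm1, Ifitm2 and Ifitm3 are related neighbours, whose transcript sequences were not compared here. The sources used here do not say how reads shared by such copies were counted. Their single values are uncertain for that reason, and the same reservation covers the Ifit, Ifi27, Oas, Mx and Gbp families.

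The genes named Ifi share that name for their induction by interferon and belong to several protein families. Ifi27, a small hydrophobic protein of mitochondria and nuclear membrane, had the highest member value in 2VO and the largest gap in units, at 64.7 units in 2VO and 40.3 units in Sham (0.67). Of the genes of 20 units or more, 99.6% had a lower ratio. Its neighbour and relative Ifi27l2b went the opposite way, at 2.00 units in 2VO and 2.86 units in Sham (-0.37). Ifi30, a lysosomal thiol reductase that prepares antigens for MHC class II, had 4.37 units in 2VO and 6.37 units in Sham (-0.46). Ifi35, a partner of Nmi, had 2.69 units in 2VO and 3.71 units in Sham (-0.35), and Ifi44 had 1.85 units in 2VO and 2.43 units in Sham (-0.27). Ifi27 thus stood alone among 5 measured Ifi genes, and it weighed heavily in any sum. The values of all 59 members added up to 242 units in 2VO and 249.8 units in Sham, and without Ifi27 to 177 units in 2VO and 209 units in Sham.

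The Oas genes encode enzymes that, on meeting double-stranded RNA, make the short oligoadenylates that activate the RNA-cutting enzyme RNase L. Oas1a had 0.749 units in 2VO and 1.33 units in Sham (-0.41), and Oas1b had 1.11 units in 2VO and 1.39 units in Sham (-0.18). Oasl2 had 1.32 units in 2VO and 1.92 units in Sham (-0.33). All 3 were lower in 2VO and none left the range of its level. Mx2, of the dynamin-like antiviral GTPases, had 5.14 units in 2VO and 5.97 units in Sham (-0.18), and its neighbour Mx1 had 0.330 units in 2VO and 0.747 units in Sham. Gbp2, a GTPase that coats vacuoles holding pathogens, had 1.30 units in 2VO and 1.51 units in Sham (-0.13). It was the only measured gene of 5 Gbp genes.

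The single effectors were all lower in 2VO. Bst2, or tetherin, which holds budding virus at the cell surface, had 3.14 units in 2VO and 5.46 units in Sham (-0.64). Isg15, the ubiquitin-like protein that is attached to other proteins during the response, had 1.60 units in 2VO and 2.06 units in Sham (-0.23). Usp18, which removes Isg15 and also damps the type I receptor, had 1.04 units in 2VO and 1.73 units in Sham (-0.42). Bst2 was the furthest apart and the 1 gene of this group outside the range of its level.

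Below the filter lay 27 members, and these leaned the same way. Of them 19 were lower in 2VO, 6 were higher and 2 were at 0 in both libraries, beside 46.8% lower among the 9694 genes of the tables that were above 0 in either rat and below the filter. They had a median of 0.225 units in 2VO and 0.284 units in Sham, and the highest values were 0.891 units in 2VO and 0.978 units in Sham. Isg20, an RNA exonuclease, had 0.389 units in 2VO and 0.748 units in Sham. Rsad2, or viperin, had 0.722 units in 2VO and 0.978 units in Sham, and Ifih1, the RNA sensor MDA5, had 0.737 units in 2VO and 0.794 units in Sham. Ifi47, a GTPase induced by interferon gamma, had 0.359 units in 2VO and 0.924 units in Sham. The members higher in 2VO in this range were Irf4, Ifit1bl, Ifitm6, Gbp3, Oas2 and Oas3, of which Gbp3, Oas2 and Oas3 had at most 0.115 units. The depth of the libraries is unknown, so no counting error can be given for such low values.

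The promoters of the members were searched for the letters of both response elements. RefSeq promoters of the rat assembly GRCr8, each from 250 bases before to 50 bases after a gene's start, were matched by symbol for 45 of the 59 members. ISRE was taken as GAAANNGAAA on either strand and GAS as TTCNNNGAA, which reads the same on both strands. The ISRE letters were in 20 of the 45 member promoters (44.4%) and in 3.77% of 27457 promoters of the table. The GAS letters were in 12 of 45 (26.7%) and in 8.68% of all. Of the named members outside the range of their level, Irf3, Ifi30 and Irf9 had no ISRE letters in their promoters. The stretches below are shown for Ifit3, Bst2, Irf7 and Ifi27, which also lay outside that range and hold the letters. They are shown as well for the Oas1 and Ifitm neighbours, whose letters are alike. Each has the ISRE letters in capitals and 15 bases on either side.
Ifit3: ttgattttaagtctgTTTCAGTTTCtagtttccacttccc
Bst2: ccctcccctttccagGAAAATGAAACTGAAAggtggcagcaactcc
Irf7: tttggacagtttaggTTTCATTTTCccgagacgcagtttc
Oas1a: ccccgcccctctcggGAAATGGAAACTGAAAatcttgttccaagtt
Oas1b: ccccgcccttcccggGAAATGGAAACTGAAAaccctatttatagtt
Ifitm2: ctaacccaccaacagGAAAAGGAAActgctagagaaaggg
Ifitm3: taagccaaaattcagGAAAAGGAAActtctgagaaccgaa
Ifi27: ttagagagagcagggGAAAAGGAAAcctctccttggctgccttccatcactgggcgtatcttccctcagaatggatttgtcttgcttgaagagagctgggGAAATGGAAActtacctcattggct

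These stretches lie in GRCr8 at chr1:241527267-241527306 (+ strand) for Ifit3, chr16:18255068-18255113 (- strand) for Bst2 and chr1:205800068-205800107 (- strand) for Irf7. Those of the Oas genes lie at chr12:41330410-41330455 (+ strand) for Oas1a and chr12:41395881-41395926 (- strand) for Oas1b. Those of the Ifitm genes lie at chr1:205482357-205482396 (- strand) for Ifitm2 and chr1:205541778-205541817 (- strand) for Ifitm3, and that of Ifi27 at chr6:128355128-128355252 (+ strand). All are in the promoter as defined above, upstream of the annotated start. The Ifit3 match begins 44 bases before the gene's start and the Irf7 match 69 bases before it. Bst2, Oas1a and Oas1b each hold a pair of matches that overlap by a shared GAAA, beginning 131, 41 and 59 bases before their starts. Ifitm2 and Ifitm3 have the same 10 letters, 33 and 44 bases before their starts. Ifi27 holds a pair of separate matches, 169 and 84 bases before its start. Ifi27, which was higher in 2VO, thus carries these letters as do members that were lower. A match describes the sequence and is not a bound site.

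The ratios were then set beside these letters. Of the measured members 24 had a promoter in the table. With ISRE letters 10 of 11 were lower in 2VO, all but Ifi27, with a median log2 ratio of -0.33. Without them 9 of 13 were lower, with a median of -0.08. The members with the letters are all induced genes except Irf7, so the letters and the role divide the genes in much the same way. Outside the members, 115 of 255 measured genes with ISRE letters were lower in 2VO (45.1%), beside 40.6% of 9343 measured genes without them, and the medians were 0.02 with the letters and 0.04 without. The GAS letters divided the members less, with 7 of 8 lower and a median of -0.22 with the letters, and 12 of 16 lower and a median of -0.20 without. For measured genes that are not members, 235 of 590 with GAS letters were lower in 2VO (39.8%), beside 40.8% of 9008 without them.

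**Figure D3:**
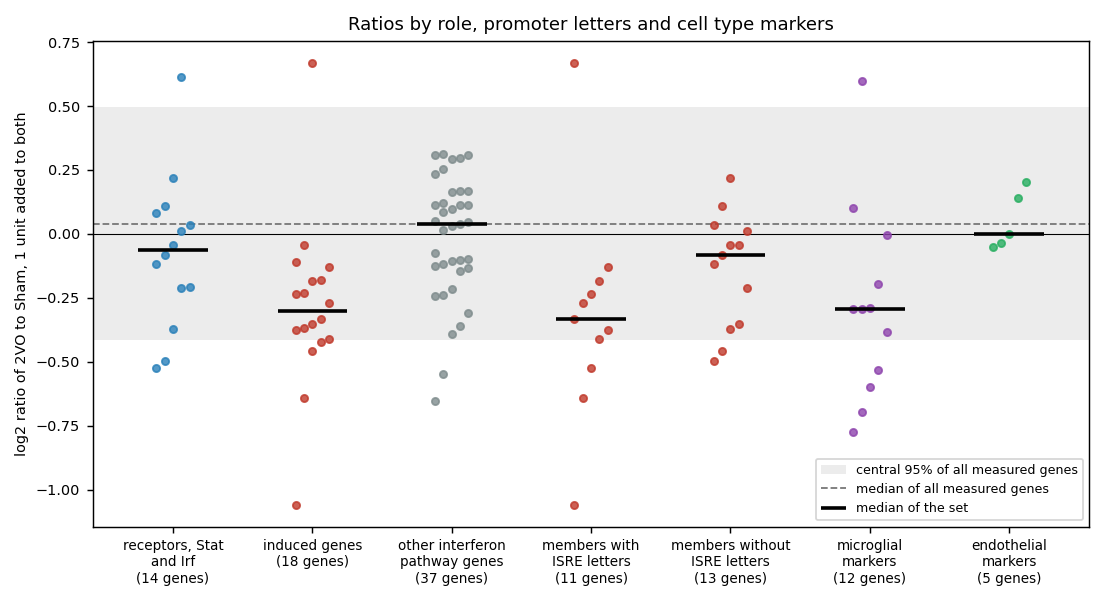
The log2 ratio of 2VO to Sham, 1 point per measured gene, for members by role and by ISRE letters and for 3 lists of other genes, with a black bar at each median, a grey band for the central 95% of all measured genes and a dashed line at their median. The induced genes have a median of -0.30, the microglial markers -0.29, the endothelial markers -0.00043 and the other interferon pathway genes 0.04. Other marker lists are not drawn, among them astrocytes (median 0.00041), neurons (0.22), oligodendrocytes (0.33) and T cells (-1.50, 2 measured genes). The part of any cell type in the interferon result was not tested.

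Other genes of the interferon system did not share the lean as a list. A list of 61 symbols held sensors, kinases, adaptors, the Isg15 conjugating enzymes, antigen processing genes and further induced genes, with older and newer names of some, and 57 were in the rat tables. Of 37 measured, 16 were lower in 2VO and 21 higher, with a median of 0.04, the same as all measured genes. Psmb8, an immunoproteasome subunit, was the 1 gene of the list at least 1.5-fold apart, at 2.51 units in 2VO and 4.53 units in Sham (-0.65). The 3 genes with the highest values were nearly level. B2m, the light chain of MHC class I, had 87.0 units in 2VO and 93.5 units in Sham. Jak1, a kinase of all interferon receptors, had 38.9 units in 2VO and 37.8 units in Sham, and Adar, an RNA-editing enzyme with an induced isoform, had 34.4 units in 2VO and 33.7 units in Sham.

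Markers of cells that can carry this response leaned in part the same way as the members. Of 12 microglial markers 10 were lower in 2VO, with a median log2 ratio of -0.29, and their summed values were 176 units in 2VO and 223 units in Sham, with 0 markers at 0. Of the 5 measured of 7 listed endothelial markers 3 were lower, with a median of -0.00043 and sums of 37.3 units in 2VO and 36.9 units in Sham. Astrocyte markers were 4 lower and 4 higher, with a median of 0.00041, and summed to 1806 units in 2VO and 2082 units in Sham, of which Gfap made up 360.0 units in 2VO and 778 units in Sham. T cell markers summed to 3.27 units in 2VO and 11.7 units in Sham, mostly from Cd3e and Cd4, with Cd3d at 0 in both rats, Cd8a and Cd2 at 0 in 2VO and Cd3g at 0 in Sham. Neuronal markers were lower for 2 of 8 and summed to 2497 units in 2VO and 2323 units in Sham. Oligodendrocyte markers were lower for 0 of 6 and summed to 4314 units in 2VO and 3457 units in Sham. The part of microglia in the interferon result was not tested, and in bulk RNA fewer cells of a type and less RNA per cell cannot be told apart.

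In the mouse the members are given as levels, since the library had no partner of its species. Among the 10 highest deposited values were those of Ifi27 at 22.9 units, Ifngr2 at 22.1, Ifitm10 at 9.14, Ifnar1 at 7.21, Irf2 at 6.94, Irf3 at 6.60, Stat2 at 6.18, Ifnar2 at 5.98 and Ifngr1 at 4.67. Whether the values are per transcript length is not stated, so this is an order of deposited values and not of molecules. All 4 receptor genes were among them. At 1 unit or more were 24 of the 74 mouse members, beside 30 of 59 in 2VO and 31 of 59 in Sham. Over all listed genes the counts were 12767 of 34714 in the mouse, 13586 of 30438 in 2VO and 13484 of 30438 in Sham. The member sets are also not alike, since of the 23 members in the mouse table only, 1 reached 1 unit. Low members included all 10 Gbp genes, at most 0.809 units for Gbp3, and all 11 genes of the Oas families, at most 0.852 units for Oasl2. The mouse table also lists 11 genes of the Ifi200 family, which sense DNA and lie in a cluster that has expanded in mice, and none reached 1 unit, Ifi203 being the highest at 0.762 units.

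For a comparison across tables each gene was ranked among the 16251 symbols that rat and mouse share. The median rank percentile of the 51 shared members was 32.1 in 2VO, 35.2 in Sham and 27.8 in the mouse. In the mouse 34 of the 51 ranked below both rats and 13 above both. The same shares over all 16251 shared symbols were not counted, so these counts cannot be read as particular to interferon genes. Irf3 ranked at 85.5 in 2VO, 90.4 in Sham and 56.7 in the mouse, and Ifngr1 at 74.5 in 2VO, 75.1 in Sham and 49.6 in the mouse. Members with a higher rank in the mouse included Ifngr2, at 71.5 in 2VO, 68.5 in Sham and 83.6 in the mouse, and Ifit3, at 24.2 in 2VO, 37.0 in Sham and 44.7 in the mouse. Ifit3, lowest in 2VO of the 3 libraries, stood at 3.51 units in the mouse, and its mouse copy Ifit3b at 2.48 units. Irf1, Irf2 and Ifitm10 ranked within 4 percentiles across all 3 libraries. Species, age, library and annotation cannot be told apart in these ranks. These examples were chosen after the values were seen.

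**Figure D4:**
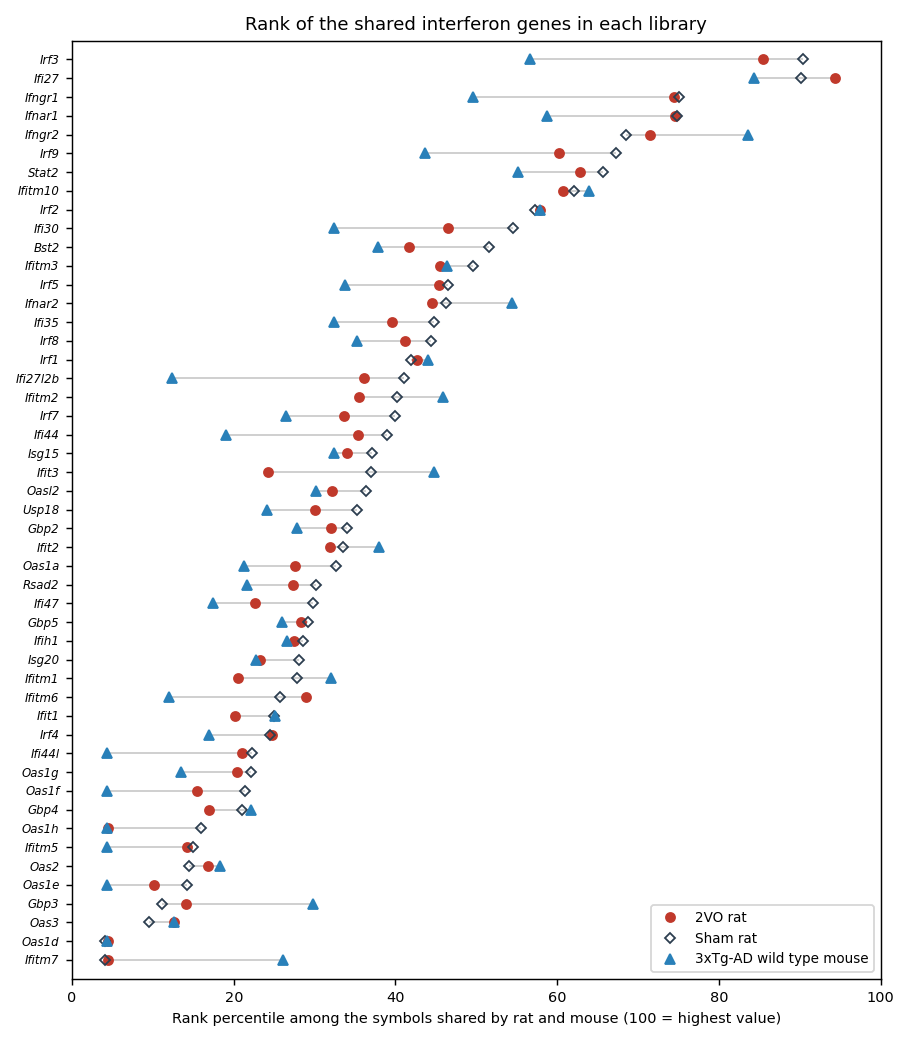
Rank percentile of 49 shared members among the 16251 symbols shared by rat and mouse, in the 2VO library (filled circles), the Sham library (open diamonds) and the 3xTg-AD wild type mouse library (triangles), ordered by the Sham rank. The triangle lies left of both rat symbols for 32 of them, with the widest gaps at high rank for Irf3 and Ifngr1, and right of both for 13 genes such as Ifngr2 and Ifit3. No such count was made over all shared symbols.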

How the data were processed

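Hippocampal RNA of 1 2VO rat library, 1 Sham rat library and 1 mouse library was analysed, grouped by the titles. TruSeq RNA v2 libraries were made from TRIzol-extracted total RNA, per the labels' protocols. The submitters' processing notes name fastp 0.21.0, HISAT2 2.1.0, DESeq2, GRCm39 and mRatBN7.2, without their roles. The sources used here do not name the quantifier, the annotation or any filter. Per the file headers, a deposited table has 1 column, a normalized expression signal per gene whose unit is not stated. It is never negative and has 6 decimals, so depth is unknown and no counting interval is given.

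Values were compared as deposited, without rescaling. Genes were kept at a mean of 1 unit or more over both rats, 1 unit was added before the log2 ratio, and 1.5-fold and 2-fold thresholds were used. With 1 library per group there was no test. Level ranges were 1 to 2, 2 to 5, 5 to 10, 10 to 20 and at least 20 units. The named genes were all members at a mean of at least 1 unit, save a few that enter the counts and are not reported here by name. In the other pathway list they were those 1.5-fold apart or among the 3 highest, and in the mouse the 10 highest members. The members and lists were chosen with earlier results of these data known. Of the 59 rat members 58 matched a RefSeq GRCr8 symbol. Alternatives were 0.25 or 4 units added, no filter, a filter at 5 units, 3 scalings, centring and a 2-fold threshold. Added later was the count without families of related copies. The code of the ratio calculation was checked on simulated data, with changes made only in genes of at least 5 units. That check does not cover the low genes or the small differences reported here. Python 3.11.15, numpy 2.4.6, pandas 2.3.3 and matplotlib 3.10.9 were used.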

Additional observations from a re-analysis of the deposited data

How the results depend on the processing

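The lean towards lower values in 2VO kept its direction under every setting tried, but its size depends on the low genes. With no filter 44 members were lower and 13 higher, beside 43.6% of all genes lower, and the median log2 ratio was -0.13. With the filter at 5 units 12 members were left and 7 were lower (58.3%, beside 40.9% of all genes at that filter), the median was -0.081 beside 0.038 over all, 0 were at least 1.5-fold lower and 1 was at least 1.5-fold higher (0.639% and 1.05% of all). With 4 units added the median was -0.12, with 0 and 1 at least 1.5-fold lower and higher (0.369% and 0.517% of all). With 0.25 units added 5 were at least 1.5-fold lower, beside 1.59% of all measured genes. At 2-fold 1 was lower and 0 higher (0.199% and 0.244% of all). Median-of-ratios scaling and centring each left 1 member at least 1.5-fold higher (1.16% and 1.2% of all). A count without families of related copies was chosen after the data were seen. In it 14 of 20 were lower, beside 41.3% of all measured genes. In that count 1 was at least 1.5-fold lower and 1 higher, beside 0.967% and 1.51% of all. Ifnar1 and Ifngr1, which are nearly level, changed sign under upper-quartile and median-of-ratios scaling and under centring, and Ifngr1 also with equal sums. The scalings brought the share of all measured genes lower in 2VO to 48.7% to 51.9%, with 26 or 27 of 32 members lower. The other pathway list had a median of 0.025 with 4 units added, 0.015 with no filter, -0.00029 with upper-quartile scaling, -0.013 with median-of-ratios scaling, 0.0040 with equal sums and 0.0016 when centred. No paired analysis was possible because each group holds 1 library, and no replicate could be left out. The unknown depth limits every value near or below 1 unit.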
